A study of Mus musculus with 15 samples.

Results

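The genes described here are 10 members of the circadian clock, namely Clock, Per1, Per2, Per3, Cry1, Cry2, Nr1d1, Nr1d2, Dbp and Tef. They were chosen by symbol from a table of 39331 RefSeq genes, all 10 were found in it, and all 10 passed the filter on low counts. The libraries are 15 samples of polyadenylated RNA from left ventricles of C57BL/6 mice, all with experimental myocardial infarction. Neonatal hearts that had received adult T cells gave 4 libraries, numbered 1, 2, 4 and 5 in the labels, and are called neonatal recipients. Neonatal hearts without T cells gave 4 libraries (6, 7, 8 and 9), called neonatal controls. Adult hearts with adult T cells gave 4 libraries (1, 2, 3 and 4), called adult recipients, and adult hearts without T cells gave 3 (5, 6 and 7), called adult controls. The protocol places collection of the neonatal hearts 36 h after infarction. For the adult hearts the labels state no time, and for no group do they state an age in days, the hour of the day at collection or the number of mice behind a library. The comparisons ask whether the clock genes differ between groups, and how the arms of the clock loop stand to each other in each group.

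The molecular clock is a loop of transcription and repression that runs in nearly every mammalian cell, cardiomyocytes included. CLOCK pairs with BMAL1 (gene symbol Arntl), binds E-box sequences and switches on the Per and Cry genes, whose proteins return to the nucleus and repress that pair. The same pair drives the nuclear receptors REV-ERB alpha and beta (Nr1d1 and Nr1d2) and the output factors DBP and TEF, which act on D-box sequences. REV-ERB proteins compete with ROR proteins at ROR elements and so repress Arntl, Npas2, Clock, Cry1 and Nfil3. Genes of the E-box and D-box arm therefore tend to peak at other hours than genes of the ROR element arm, and genes within an arm can peak hours apart, so that a difference in hour between groups of hearts can move both arms unequally. In rodents the clock of peripheral organs matures after birth, and in the adult heart it sets daily rhythms of metabolism and of ion channels.

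Promoter sequences from RefSeq on GRCm38.p6, from 250 bases before to 50 bases after each annotated start, were found for 9 of the 10 members (13 sequences). The E-box CACGTG was present in 3 of these members (Per1, Cry1 and Tef), against 7.15% of all 32851 promoters of that length. The variant CACGTT was present in 3 (Cry1, Cry2 and Nr1d1), against 4.69% of promoters. The D-box pattern TTANGTAA was present in 1 member (Per3), against 2.32%, and the ROR half-site AGGTCA in 3 (Clock, Per1 and Nr1d2), against 16.3%. Both strands were searched, and no match overlapped another. A member counted when any of its sequences matched, and Clock, Per1 and Tef each had more than 1 sequence. The shares over all promoters count single sequences, so they are not in the same unit as the counts of members. A match describes letters in this window only. The sequences shown are those of 4 members that were lower in neonatal than in adult hearts both with and without T cells (Per3, Cry2, Nr1d1 and Tef), and of Cry1, which passed in no comparison. Each is written 5′ to 3′ on the strand of its gene, and capitals mark these motifs on either strand.
Per3, chr4:151044616-151044915, minus strand: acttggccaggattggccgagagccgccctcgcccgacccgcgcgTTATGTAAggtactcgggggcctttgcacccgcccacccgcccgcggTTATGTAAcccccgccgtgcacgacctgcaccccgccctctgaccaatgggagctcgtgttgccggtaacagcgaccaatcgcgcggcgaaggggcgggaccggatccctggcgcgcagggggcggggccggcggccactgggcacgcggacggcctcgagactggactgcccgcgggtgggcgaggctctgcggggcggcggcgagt
Cry2, chr2:92434020-92434319, minus strand: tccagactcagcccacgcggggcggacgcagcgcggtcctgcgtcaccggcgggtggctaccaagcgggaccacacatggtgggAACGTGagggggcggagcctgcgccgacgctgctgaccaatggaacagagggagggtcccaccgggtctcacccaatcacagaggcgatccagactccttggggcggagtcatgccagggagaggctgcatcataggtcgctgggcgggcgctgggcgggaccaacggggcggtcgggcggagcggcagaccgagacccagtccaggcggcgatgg
Nr1d1, chr11:98775328-98775627, minus strand: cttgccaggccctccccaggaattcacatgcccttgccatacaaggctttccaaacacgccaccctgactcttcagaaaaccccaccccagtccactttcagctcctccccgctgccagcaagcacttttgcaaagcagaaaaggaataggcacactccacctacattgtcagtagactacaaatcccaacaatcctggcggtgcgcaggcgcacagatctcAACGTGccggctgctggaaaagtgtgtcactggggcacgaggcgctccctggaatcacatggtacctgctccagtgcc
Tef, chr15:81802423-81802722, plus strand: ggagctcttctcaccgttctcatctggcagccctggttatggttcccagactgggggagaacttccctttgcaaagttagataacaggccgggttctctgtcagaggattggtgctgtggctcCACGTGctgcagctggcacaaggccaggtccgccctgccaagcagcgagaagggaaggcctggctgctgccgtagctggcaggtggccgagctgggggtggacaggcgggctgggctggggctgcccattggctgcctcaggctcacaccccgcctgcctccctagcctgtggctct
Cry1, chr10:85185005-85185304, minus strand: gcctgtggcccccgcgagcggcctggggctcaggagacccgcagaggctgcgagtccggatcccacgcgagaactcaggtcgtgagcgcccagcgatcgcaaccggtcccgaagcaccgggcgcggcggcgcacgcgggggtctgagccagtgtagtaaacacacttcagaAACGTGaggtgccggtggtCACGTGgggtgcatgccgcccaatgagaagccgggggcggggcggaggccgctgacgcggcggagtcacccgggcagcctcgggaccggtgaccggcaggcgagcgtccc
Per3 holds 2 copies of the D-box letters, at offsets of -205 and -158 bases from the start. Cry1 holds a CACGTG E-box at offset -60 and the variant, read on the opposite strand, at offset -79. Of these 5 sequences, that of Cry1 alone holds both E-box forms.

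Total counts ran from 21871617 to 34302786 per library. Levels are given in CPM (counts scaled to each library's effective size by the TMM method), and a floor of 3 counts equalled 0.0875 to 0.137 CPM of the unscaled totals, so every member lay far above it. Markers of cardiomyocytes were abundant in all libraries, and 5 of 5 markers of macrophages were detected in each. The summed macrophage markers measured 420 to 646 CPM in neonatal recipients, 149 to 479 CPM in neonatal controls, 123 to 176 CPM in adult recipients and 131 to 182 CPM in adult controls. Neonatal control 8 had the lowest macrophage level of the neonatal libraries. The share of mitochondrially encoded counts was 12.9 to 18.01% in adult recipients and 18.3 to 21.8% in adult controls. In whole ventricles, fewer cells of a type and less RNA per cell cannot be told apart.

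The activator was measured first. Clock (gene ID 12753, chromosome 5, 76209868 to 76305603, minus strand) had 81.1, 86.9, 73.9 and 78.0 CPM in neonatal recipients and 79.1, 76.5, 81.2 and 85.9 CPM in neonatal controls. Adult recipients had 59.0, 67.1, 66.6 and 56.1 CPM, and adult controls 79.5, 89.6 and 66.1 CPM. Adult recipients were the low group, and their highest library stood just above the lowest adult control.

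The Per genes encode repressors of the loop and did not share 1 pattern. Per1 (gene ID 18626, chromosome 11, 69095108 to 69109965, plus strand), which also responds within minutes to glucocorticoids and cAMP, had 29.2, 30.1, 39.8 and 23.6 CPM in neonatal recipients and 33.8, 25.4, 37.1 and 30.1 CPM in neonatal controls. In adult recipients it had 49.7, 39.6, 36.4 and 43.5 CPM, and in adult controls 26.8, 19.8 and 50.2 CPM. Adult controls 6 and 7 held the lowest and the highest Per1 level of all 15 libraries. Per2 (gene ID 18627, chromosome 1, 91415977 to 91459351, minus strand) had 14.0, 13.0, 13.4 and 11.3 CPM in neonatal recipients and 11.5, 15.8, 10.4 and 16.0 CPM in neonatal controls. Adult recipients had 6.92, 7.86, 10.3 and 7.14 CPM, and adult controls 9.12, 9.31 and 9.33 CPM. Neonatal and adult libraries did not overlap in 34.6% of all genes tested between controls and in 45.4% between recipients. Every neonatal library had more Per2 than every adult one, with neonatal control 8 and adult recipient 3 nearly level. Per3 (gene ID 18628, chromosome 4, 150997018 to 151044707, minus strand) ran the other way. It had 17.2, 27.4, 26.4 and 18.2 CPM in neonatal recipients and 23.4, 25.6, 27.1 and 32.8 CPM in neonatal controls. In adult recipients it had 29.1, 28.0, 29.0 and 29.0 CPM, and in adult controls 37.7, 33.9 and 42.9 CPM, the highest group.

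The cryptochromes, which repress together with PER proteins, differed from each other. Cry1 (gene ID 12952, chromosome 10, 85131700 to 85185054, minus strand) lay between 14.1 and 18.3 CPM in all 15 libraries, with means of 16.9 ± 1.33 CPM in neonatal recipients, 16.3 ± 1.91 in neonatal controls, 16.3 ± 1.595 in adult recipients and 17.02 ± 0.333 in adult controls (SD, n = 4, 4, 4 and 3). Its highest library was 1.29 times its lowest, the narrowest range of the 10 members. Cry2 (gene ID 12953, chromosome 2, 92403646 to 92434085, minus strand) had 20.9, 22.7, 23.9 and 22.8 CPM in neonatal recipients and 21.4, 24.4, 25.6 and 24.4 CPM in neonatal controls. Adult recipients had 35.3, 32.3, 35.2 and 32.8 CPM, and adult controls 34.2, 29.6 and 35.8 CPM. The 8 neonatal libraries and the 7 adult libraries did not overlap, where 34.6% of all genes tested did not between controls and 45.4% between recipients. Cry2 shares 295 exon bases with D930015M05Rik on the opposite strand, a gene that did not pass the filter on low counts.

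**Figure D1:**
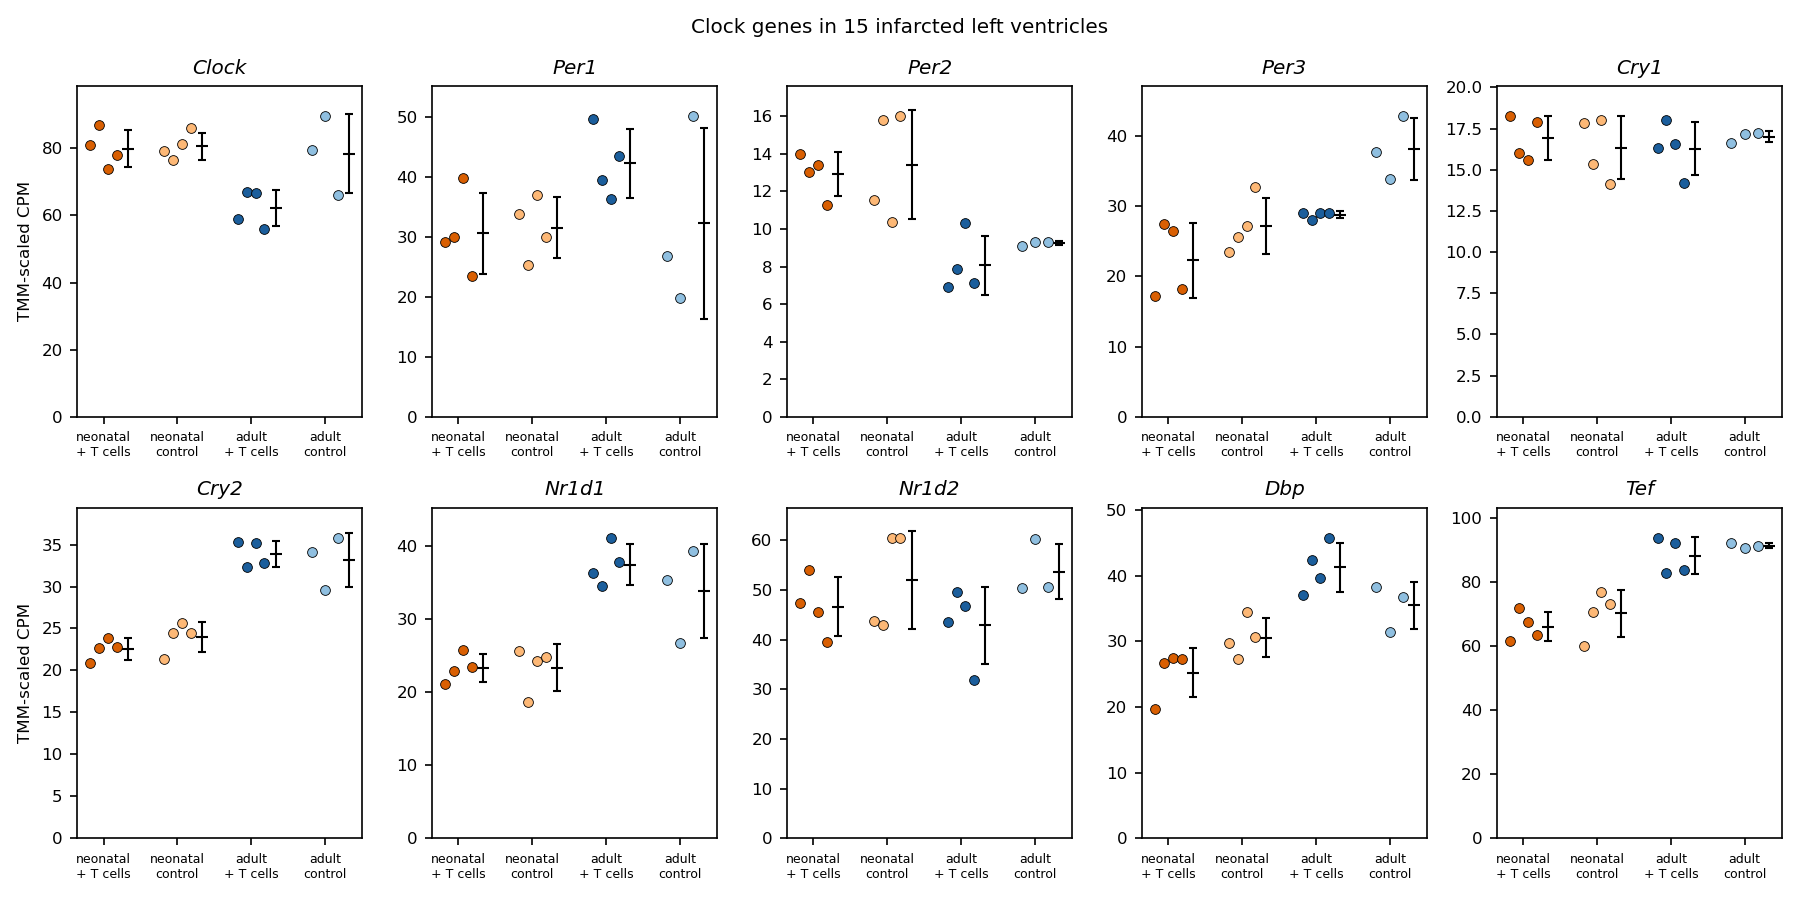
TMM-scaled CPM of the 10 clock genes in each library (points) of the 4 groups, with the group mean and SD beside them (n = 4, 4, 4 and 3); each panel has its own axis from 0. Per2 stands higher, and Cry2, Nr1d1, Tef and Per3 lower, in neonatal than in adult hearts of the same treatment, while Cry1 stays between 14.1 and 18.3 CPM.

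Of the REV-ERB receptors, Nr1d1 (gene ID 217166, chromosome 11, 98767932 to 98775377, minus strand) had 21.1, 22.9, 25.8 and 23.4 CPM in neonatal recipients and 25.6, 18.6, 24.2 and 24.8 CPM in neonatal controls. In adult recipients it had 36.3, 34.5, 41.1 and 37.7 CPM, and in adult controls 35.4, 26.7 and 39.3 CPM. Neonatal and adult libraries did not overlap, and adult control 6 came nearest to the neonatal level. Of all genes tested, 34.6% did not overlap by age in controls and 45.4% in recipients. The exons of Nr1d1 share 263 bases with Thra, the gene of thyroid hormone receptor alpha, on the opposite strand, and the strand setting of the counting is not given in the sources used here. Thra itself fell in neonatal recipients against adult recipients (-0.47 ± 0.079, edgeR adjusted p = 9.22e-05) and in neonatal against adult controls (-0.44 ± 0.084, edgeR adjusted p = 0.000799). Its part in the Nr1d1 values was not tested. Nr1d2 (gene ID 353187, chromosome 14, 18204056 to 18239106, minus strand) averaged 46.6 ± 6.00 CPM in neonatal recipients, 51.9 ± 9.90 in neonatal controls, 42.9 ± 7.74 in adult recipients and 53.7 ± 5.62 in adult controls (SD, n = 4, 4, 4 and 3). Its lowest library was adult recipient 4, with 31.9 CPM.

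Of the output factors of the PAR bZIP family, Dbp (gene ID 13170, chromosome 7, 45705100 to 45710203, plus strand) had 19.7, 26.6, 27.4 and 27.2 CPM in neonatal recipients and 29.7, 27.3, 34.4 and 30.7 CPM in neonatal controls. Adult recipients had 37.1, 42.4, 39.7 and 45.8 CPM, and adult controls 38.3, 31.4 and 36.7 CPM. Neonatal recipients formed the lowest group and adult recipients the highest. Dbp shares 539 exon bases with Sphk2, a sphingosine kinase gene on the opposite strand, which passed in no comparison. Sphk2 had -0.23 ± 0.10 in neonatal over adult recipients (edgeR adjusted p = 0.0660) and -0.19 ± 0.11 in controls (edgeR adjusted p = 0.204). The part of Sphk2 in the Dbp values was not tested. Tef (gene ID 21685, chromosome 15, 81802673 to 81826863, plus strand) had 61.7, 71.8, 67.4 and 63.6 CPM in neonatal recipients and 60.1, 70.5, 77.0 and 73.3 CPM in neonatal controls. In adult recipients it had 93.9, 82.8, 92.4 and 83.7 CPM, and in adult controls 92.2, 90.5 and 91.4 CPM. All 8 neonatal libraries lay below all 7 adult ones, where 34.6% of all genes did not overlap by age in controls and 45.4% in recipients.

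The clock genes of neonatal and adult hearts were compared first among hearts without T cells. In neonatal controls Per2 rose and Per3, Cry2, Nr1d1 and Tef fell relative to adult controls, so that 5 of 10 members passed at an adjusted p under 0.05, 1 higher and 4 lower. Over all 16437 genes tested 30.9% passed, 15.4% higher and 15.6% lower. Fold changes are log2 values of neonatal over adult ± standard error, from 1 edgeR quasi-likelihood fit over the 15 libraries with Benjamini-Hochberg adjustment over all genes. Cry2 fell by the clearest margin relative to its error (-0.47 ± 0.084, adjusted p = 0.000474), followed by Tef (-0.38 ± 0.082, adjusted p = 0.00197), Nr1d1 (-0.54 ± 0.12, adjusted p = 0.00311), Per2 (0.54 ± 0.16, adjusted p = 0.0148) and Per3 (-0.49 ± 0.15, adjusted p = 0.0176). Dbp had a value of -0.22 ± 0.11 (adjusted p = 0.161). Clock (0.04 ± 0.093), Per1 (-0.03 ± 0.27), Cry1 (-0.06 ± 0.10) and Nr1d2 (-0.05 ± 0.16) gave values smaller than their errors. Without neonatal control 8 the same 5 members passed. The call of Per2 was lost without neonatal control 7 (adjusted p = 0.0528), neonatal control 9 (0.0510) or adult control 5 (0.0534), and that of Per3 without neonatal control 6 (0.0525) or adult control 7 (0.0874).

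Among hearts with T cells the same 5 members passed in the same directions, and Clock and Dbp passed as well. This comparison shares no library with that of controls, but both came from 1 fit with 1 estimate of the spread. In total 7 of 10 members passed, 2 higher and 5 lower, where 50.7% of all genes passed (26.9% higher, 23.8% lower). Cry2 fell by 0.59 ± 0.079 on the log2 scale in neonatal recipients (adjusted p = 1.02e-05), Dbp by 0.71 ± 0.11 (adjusted p = 3.03e-05), Nr1d1 by 0.68 ± 0.12 (adjusted p = 8.82e-05) and Tef by 0.42 ± 0.076 (adjusted p = 2e-04). Per2 rose by 0.69 ± 0.15 (adjusted p = 0.0008) and Clock by 0.36 ± 0.087 (adjusted p = 0.00193). Per3 fell by 0.37 ± 0.14 (adjusted p = 0.0348), and its adjusted p lay between 0.0549 and 0.123 when neonatal recipient 1 or 5 or any single adult recipient was left out. Per1 (-0.46 ± 0.25), Cry1 (0.06 ± 0.097) and Nr1d2 (0.12 ± 0.15) did not pass. The Clock value was 0.03 (adjusted p = 0.754) once the trend of each library with transcript length was removed. With that trend removed Per1 had -0.63 (adjusted p = 0.0483), and the other 6 calls held. The summed macrophage markers were higher in every neonatal than in every adult recipient, and in controls all but neonatal control 8 lay above the adult range. Erythroid markers were 933 to 1620 CPM in neonatal and 2937 to 4189 CPM in adult recipients, and 638 to 1789 CPM in neonatal and 2290 to 2434 CPM in adult controls. Endothelial markers were 566 to 675 CPM in neonatal and 811 to 964 CPM in adult recipients, and 589 to 648 CPM in neonatal and 828 to 859 CPM in adult controls. These separated the ages in both comparisons. Summed cardiomyocyte markers separated the recipients (26948 to 34154 CPM in neonatal, 40813 to 44850 CPM in adult), and the mitochondrial share separated the controls (11.5 to 16.2% in neonatal, 18.3 to 21.8% in adult). Ryr2, 1 of the cardiomyocyte markers, had 0.18 ± 0.13 in recipients (edgeR adjusted p = 0.251), where the sum was lower in neonatal hearts. The part of these values in the differences by age was not tested.

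**Figure D2:**
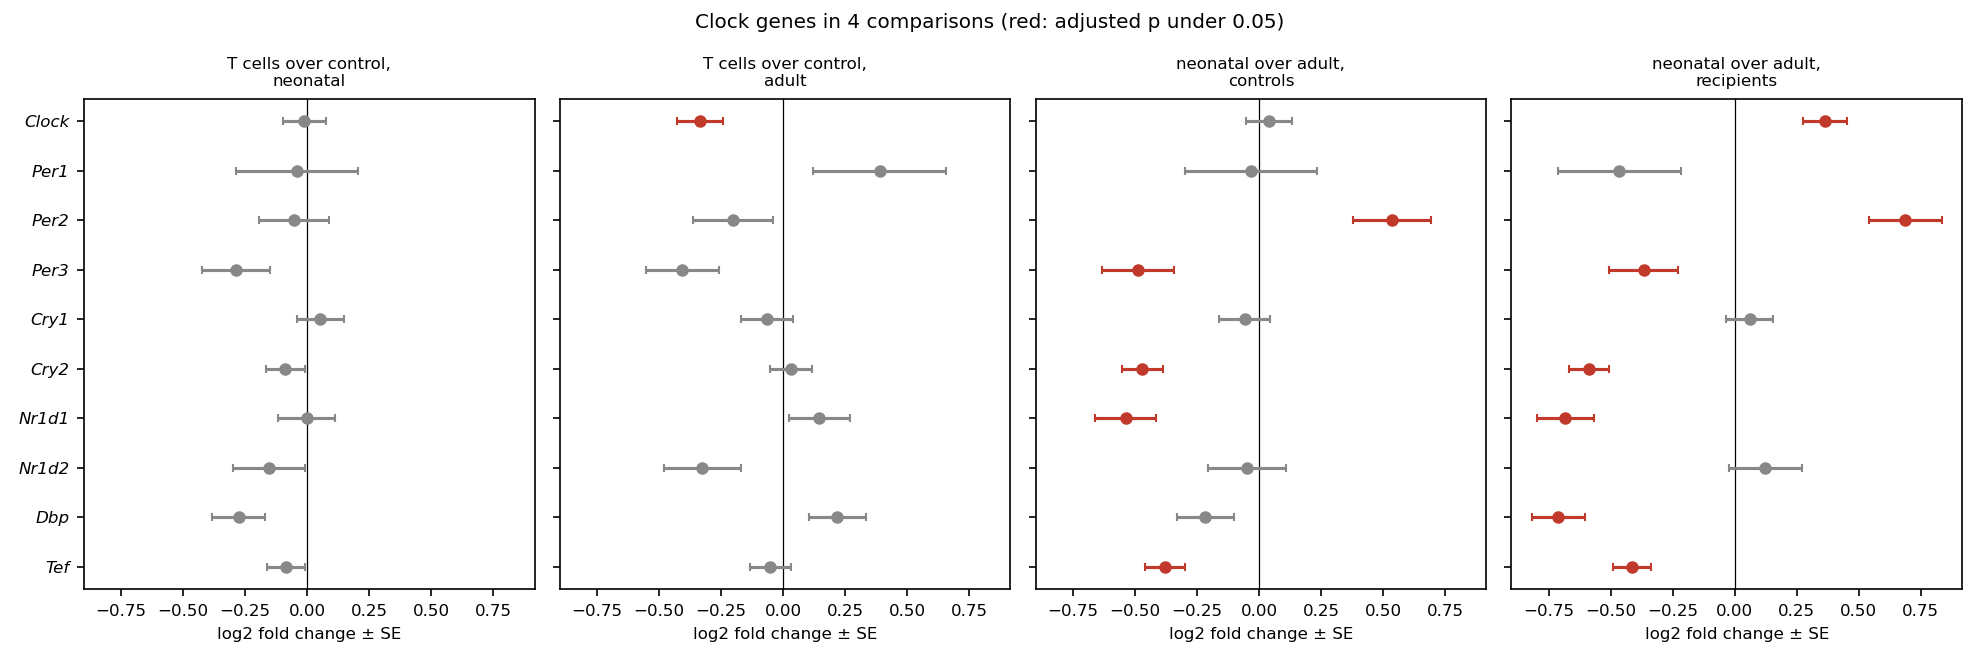
Log2 fold changes ± standard error of the 10 clock genes in 4 comparisons on 1 shared axis, from the edgeR fit; red points have an adjusted p under 0.05. No point is red for T cells in neonatal hearts, 1 (Clock) is red in adult hearts, and 5 and 7 are red for neonatal over adult controls and recipients.

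Adult T cells in infarcted neonatal hearts were accompanied by no called change of a clock gene. Of 10 members 0 passed by edgeR, 0 by DESeq2 and 0 by limma voom, where 0% of all genes passed by edgeR (513 of 16437 at an unadjusted p under 0.05), and 1 member, Dbp, had an unadjusted p under 0.05. Dbp had a log2 fold change of -0.28 ± 0.11 (unadjusted p = 0.0181, edgeR adjusted p = 0.999), with 27.3 CPM in the lowest control against 27.4 CPM in the highest recipient, so that the groups overlapped. Without neonatal recipient 1, the lowest library for Dbp, the value was -0.17. Without neonatal control 8, the highest control for Dbp, it was -0.22. The largest value of the 10 was that of Per3, at -0.29 ± 0.14, and 9 of 10 values were negative, with a median of -0.07 against -0.00 for all genes. The median standard error over all genes was 0.114, and among the members it was smallest for Tef (0.076) and largest for Per1 (0.25).

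In adult hearts, Clock was lower with T cells and no other member passed. Clock fell by 0.33 ± 0.093 on the log2 scale (adjusted p = 0.0377), 1 of 10 members against 8.55% of all genes, 3.53% higher and 5.03% lower. The Clock libraries of recipients and controls overlapped, since adult recipient 2 had 67.1 CPM and adult control 7 had 66.1 CPM. Per3 had -0.41 ± 0.15 (adjusted p = 0.0871) and Nr1d2 -0.33 ± 0.16 (adjusted p = 0.193), both with libraries that did not overlap, as in 25.1% of all genes tested. Dbp had 0.22 ± 0.11 (adjusted p = 0.231), Per1 0.39 ± 0.27 (adjusted p = 0.382) and Nr1d1 0.15 ± 0.12 (adjusted p = 0.476). The call of Clock was lost when any single adult library except recipient 3 or control 7 was left out, with adjusted p from 0.0517 without recipient 2 to 0.193 without control 6. Without adult control 7, which held the highest Per1 level, Per1 rose by 0.86 (adjusted p = 0.0268) and Clock still passed. Over all genes the count of calls was 0 without adult recipient 4, adult control 5 or adult control 6, and 464 without adult recipient 2. The summed markers of cardiomyocytes were 40813 to 44850 CPM in adult recipients and 31990 to 35663 CPM in adult controls, and those of erythroid cells 2937 to 4189 CPM and 2290 to 2434 CPM. Neither overlapped between the groups, nor did the mitochondrial share given above. The cardiomyocyte marker Ryr2 ran opposite to the sum, at 460 to 542 CPM in adult recipients and 614 to 658 CPM in adult controls. The other cardiomyocyte markers had positive log2 fold changes. The summed T cell markers (3 genes) were 1.01 to 1.91 CPM in adult recipients and 0.609 to 1.06 CPM in adult controls, which overlapped. The part of these values in the Clock result was not tested. In a fit of the adult libraries alone Per3 passed too (-0.42, adjusted p = 0.0153).

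Transcript length moved with these adult values. Transcript lengths were found for 15334 of the tested genes, and the rank correlation (Spearman) of T cell log2 fold change and length over them was -0.45 for adults and -0.03 for neonates, as a description, since genes share the libraries. Clock has the longest transcript of the 10 members (9744 bases) and Dbp the shortest (1837 bases). With the length trend of each library removed, Clock had -0.08 in adult hearts (adjusted p = 0.677), Per3 -0.25, Dbp 0.12 and Per1 0.49, and 0 of 16437 genes passed. For neonatal over adult controls the correlation with length was 0.05, and the same numbers of members passed with and without the trend, 1 higher and 4 lower. For neonatal over adult recipients it was 0.26.

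**Figure D3:**
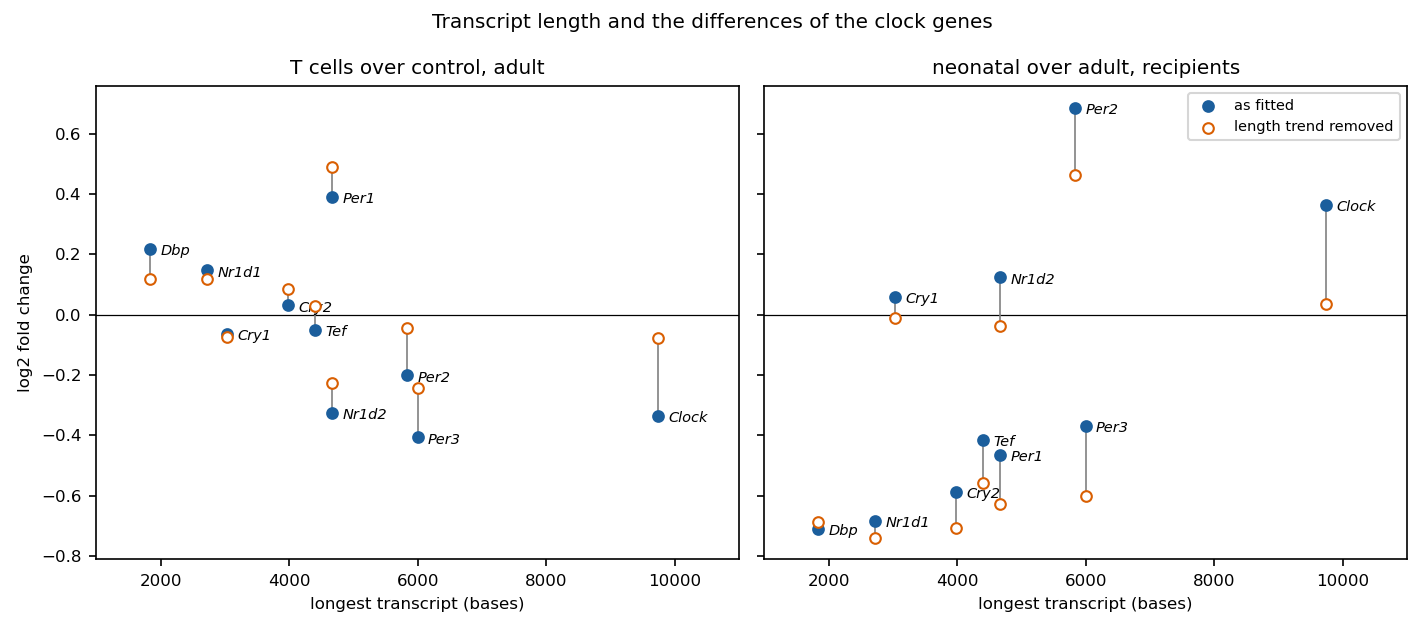
Log2 fold change of the 10 clock genes against the length of their longest transcript in bases, as fitted (filled) and with the length trend of each library removed (open). In adult hearts the T cell value of Clock moves to -0.08, and between neonatal and adult recipients to 0.03, while Dbp, Nr1d1 and Cry2 stay below -0.5 in recipients.

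The T cell effects in neonatal and adult hearts were set against each other in the same fit. Of 10 members 0 passed by edgeR and 0 by DESeq2 for this difference, where 0% of all genes passed by edgeR (2511 at an unadjusted p under 0.05, and 174 called by DESeq2), and 2 had an unadjusted p under 0.05. Dbp differed by -0.49 ± 0.16 (unadjusted p = 0.00536, adjusted p = 0.194), with a negative T cell value in neonatal hearts and a positive one in adult hearts. Its adjusted p was 0.0669 by DESeq2 and 0.117 to 0.376 with any single library left out. Clock differed by 0.32 ± 0.13 (adjusted p = 0.244), and by 0.08 with the length trend removed. The rank correlation (Spearman) of this difference with transcript length was 0.41 over genes. Dbp has the shortest transcript of the 10 members (1837 bases).

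Genes of both arms of the loop were then read together. The E-box and D-box arm held 10 genes (Per1, Per2, Per3, Nr1d1, Nr1d2, Dbp, Tef, Hlf, Ciart and Bhlhe41) and the ROR element arm 5 (Arntl, Npas2, Clock, Cry1 and Nfil3). Cry2, which had -0.47 in neonatal over adult controls and -0.59 in recipients, was in neither arm, so the counts and medians below leave it out. Between neonatal and adult controls 1 gene of the E-box and D-box arm rose and 4 fell, with a median log2 fold change of -0.24, and 1 of the ROR element arm, Nfil3, fell and none rose, with a median of -0.18. The median of all genes was 0.02, and 30.9% of all genes passed (15.4% higher, 15.6% lower). Between neonatal and adult recipients the medians were -0.39 (1 higher, 5 lower) and 0.07 (1 higher, 1 lower), against 0.03 for all genes. Of all genes 50.7% passed between recipients, 26.9% higher and 23.8% lower. With the length trend removed the gene called higher in the ROR element arm, Clock, no longer passed, and the calls were 1 higher and 7 lower in the E-box and D-box arm and 0 higher and 1 lower in the ROR element arm. Of all 16437 genes 8103 then passed, 3231 higher and 4872 lower. For T cells in neonatal hearts the medians were -0.07 and 0.03 with no gene called, and in adult hearts -0.06 and -0.22 with Clock alone called. Of all genes 0% passed for T cells in neonatal hearts and 8.55% in adult hearts.

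Read by library, the mean centred log2 level of the E-box and D-box arm ran from -0.28 to 0.02 in neonatal recipients, -0.16 to 0.08 in neonatal controls, 0.03 to 0.16 in adult recipients and 0.01 to 0.23 in adult controls. The ROR element arm ran from -0.13 to 0.07 in neonatal recipients, -0.13 to 0.04 in neonatal controls, -0.21 to 0.02 in adult recipients and 0.09 to 0.16 in adult controls. The E-box and D-box arm was thus low in most neonatal libraries, and the ROR element arm was higher in the 3 adult controls than in every other library. The medians and ranges of this small arm rest on Clock and Arntl among others, and Clock moved with transcript length as given above. The difference between the arms ran from -0.29 to 0.15 in neonatal recipients, -0.15 to 0.21 in neonatal controls, 0.11 to 0.24 in adult recipients and -0.15 to 0.12 in adult controls. These ranges overlapped between all 4 groups. Between the recipient groups the overlap rested on neonatal recipient 4 (0.15), since the other neonatal recipients lay between -0.29 and -0.16. Adult recipient 4 and neonatal control 9 held the 2 highest differences, 0.24 and 0.21. The log2 ratio of Dbp to Arntl was 0.76 to 1.67 in neonatal recipients, 1.22 to 1.65 in neonatal controls, 1.75 to 2.25 in adult recipients and 1.42 to 1.49 in adult controls. That of Nr1d1 to Arntl was 0.75 to 1.58 in neonatal recipients, 0.67 to 1.20 in neonatal controls, 1.72 to 1.996 in adult recipients and 1.20 to 1.52 in adult controls. In both ratios all 4 adult recipients lay above all 11 other libraries, and these ratios were not tested. The length trend was not removed from them, and Dbp and Nr1d1 have transcripts of 1837 and 2721 bases, under the median of 3271. T cell values in adult hearts moved with length (rank correlation -0.45), and 25.1% of all genes did not overlap between the adult groups. How many ratios of other genes set adult recipients apart was not counted. The labels give no hour of collection, so an hour and a difference in hour cannot be told from these values.

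**Figure D4:**
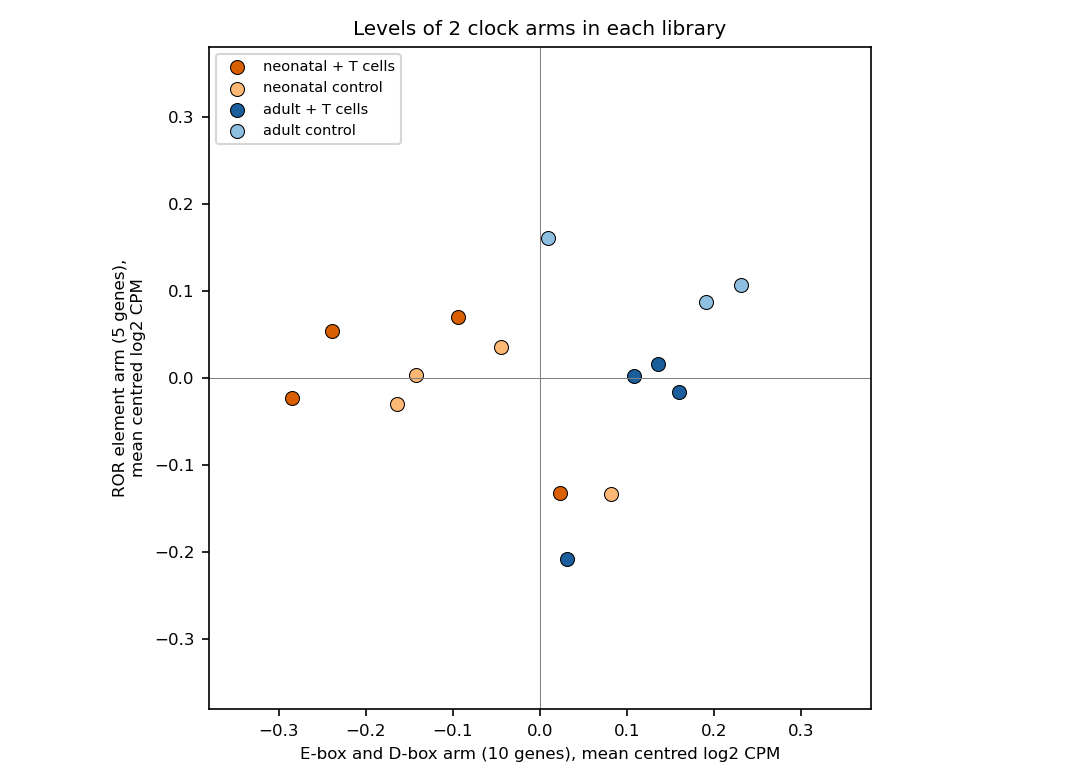
Mean centred log2 CPM of 10 genes of the E-box and D-box arm (horizontal) and 5 genes of the ROR element arm (vertical), 1 point per library. All 7 adult libraries lie to the right of 0 and 6 of 8 neonatal libraries to the left, the 3 adult controls lie highest, and the difference between the arms ranges from -0.29 to 0.24 over all libraries.

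Single libraries differed in the clock genes within groups. Adult control 6 had the lowest level of its group for Per1, Nr1d1, Dbp, Cry2 and Per3 and the highest for Clock and Nr1d2, while adult control 7 had the highest for Per1, Nr1d1, Cry2 and Per3 and the lowest for Clock. The spread within groups, as the residual SD of log2 CPM, was widest for Per1 (0.37, wider than in 79.7% of all genes tested) and narrowest for Cry2 (0.10, 15.6%) and Tef (0.11, 19.5%). Nr1d1 (0.18, 55.7%) and Dbp (0.17, 50.7%) were near the median of all genes, which was 0.167. Group membership accounted for 90.5% of the variance of Cry2, 82.6% of Tef and 79.6% of Nr1d1 over the 15 libraries, but for 7.07% of Cry1 and 29.8% of Per1, with a median of 56.0% over all genes. From the lowest to the highest library, Per1 varied 2.53-fold, Per3 2.498-fold, Dbp 2.32-fold, Per2 2.31-fold and Nr1d1 2.204-fold.

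Among 19 other clock genes, all of them tested, Hlf and Nfil3 fell in neonatal hearts both with and without T cells. Between neonatal and adult controls 1 rose and 3 fell, and between recipients 4 rose and 3 fell, so that 4 and 7 of 19 passed where 30.9% and 50.7% of all genes did. With T cells 0 of the 19 passed by edgeR and by limma voom at either age, with 1 at an unadjusted p under 0.05 in neonatal hearts and 6 in adult hearts. By edgeR 0% of all genes passed for T cells in neonatal hearts and 8.55% in adult hearts. Hlf, the third PAR bZIP factor, fell by 0.75 ± 0.13 in neonatal recipients and by 0.81 ± 0.14 in neonatal controls (adjusted p = 0.000141 and 0.000304), and Nfil3, the D-box repressor, by 0.43 ± 0.086 and 0.34 ± 0.093 (adjusted p = 0.000474 and 0.00889). Usp2, a clock-controlled deubiquitinase, fell in recipients (-0.47 ± 0.084, adjusted p = 0.00015) and had -0.23 ± 0.089 in controls (adjusted p = 0.0633), where it passed without neonatal control 8 (-0.29, adjusted p = 0.0184).

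Arntl and Npas2 passed in no comparison of the 15-library edgeR fit. Arntl, which encodes BMAL1, averaged 11.5 ± 2.09 CPM in neonatal recipients, 11.3 ± 0.527 in neonatal controls, 10.2 ± 0.600 in adult recipients and 12.98 ± 1.205 in adult controls. Its age values were 0.18 ± 0.12 in recipients (adjusted p = 0.218) and -0.20 ± 0.12 in controls (adjusted p = 0.241), and its T cell value in adult hearts was -0.35 ± 0.13 (adjusted p = 0.0815). Without neonatal recipient 4, the lowest library for Arntl, it passed between recipients (0.29, adjusted p = 0.0238). Npas2, which can stand in for CLOCK, had 0.07 ± 0.13 and -0.18 ± 0.14 for age in recipients and controls. Ciart, a repressor of the loop, lay between 0.804 and 2.49 CPM and had 0.27 ± 0.29 and 0.06 ± 0.31. In recipients Arntl2, Fbxw11, Csnk1e and Nono rose, and in controls Nono rose and Rorb, at 0.130 to 1.504 CPM, fell. The Rorb call was lost without neonatal control 7 or 8 or any single adult control (adjusted p up to 0.120), and the Nono call in recipients without neonatal recipient 1 or 4 or adult recipient 1, 2 or 3 (adjusted p 0.0631 to 0.0762), with DESeq2 size factors (0.0640), without the filter (0.135) and with the length trend removed (0.121).

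**Figure D5:**
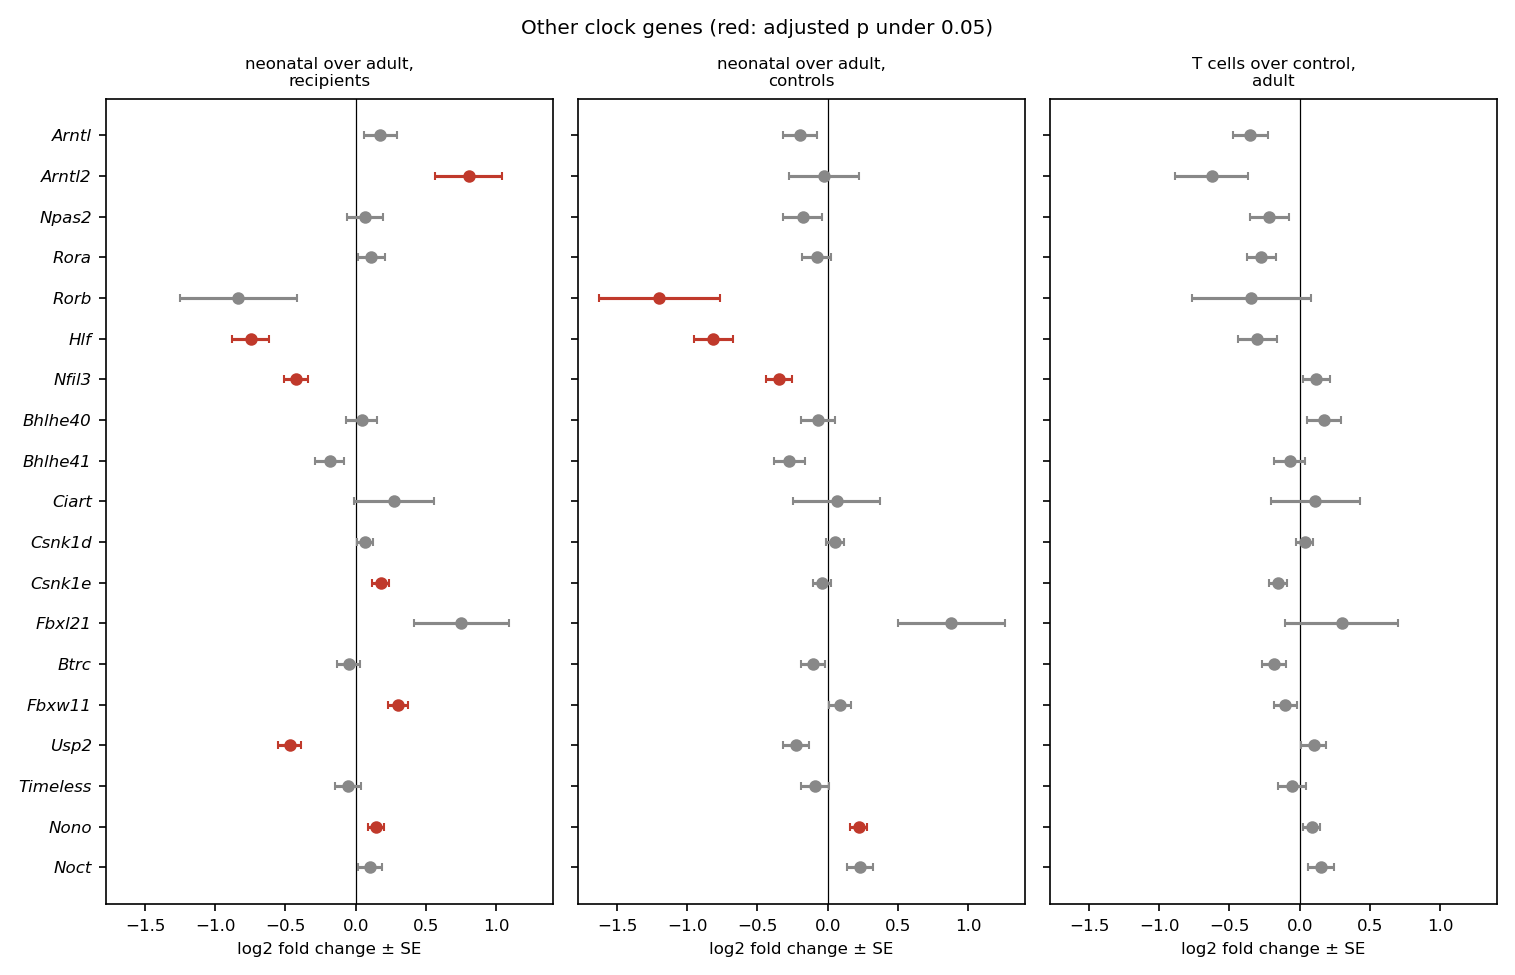
Log2 fold changes ± standard error of 19 other clock genes in 3 comparisons on 1 shared axis, from the edgeR fit; red points have an adjusted p under 0.05. Hlf and Nfil3 are red and below 0 for neonatal over adult hearts with and without T cells, and Arntl and Npas2 are grey in all 3 panels.

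Genes other than the 10 members were ranked by how close their profile over the 15 libraries lay to Dbp and to Clock. Closeness was the root mean square difference of centred log2 CPM, among 11002 genes with a mean of at least 5 CPM. The nearest of so many genes will tend to lie closer than the nearest of the few other members. The distances therefore do not tell whether Dbp or Clock behaved as a clock gene. The nearest to Dbp were Nkx2-5, a cardiac lineage transcription factor (0.0945), Emc9 (0.106), Slx1b (0.113), Ppm1j (0.113), Rbm38 (0.115) and Abcb8 (0.117). Their transcripts had 1525 to 3152 bases, against 1837 for Dbp and a median of 3271 for all genes. The nearest members were Cry2 (0.162), Nr1d1 (0.188) and Tef (0.197). Closest to Clock were Impad1 (0.0502), Mbnl2 (0.0507), Strn3 (0.0527), Trak2 (0.0530), Tmx4 (0.0603) and Rnf141 (0.0607), with transcripts of 3701 to 6543 bases against a median of 3271 for all genes. The nearest member was Nr1d2 (0.180).

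Genes that the clock is known to influence in heart differed by age in both directions. Of 12 such genes 2 rose and 6 fell in neonatal over adult controls, and 4 rose and 6 fell in recipients, where 30.9% and 50.7% of all genes passed. Tcap, which encodes the titin cap, averaged 119 ± 5.76 CPM in neonatal recipients and 331 ± 17.8 CPM in adult recipients (-1.48 ± 0.079, adjusted p = 9.08e-10). Kcnip2, an auxiliary subunit of cardiac potassium channels, fell by 1.09 ± 0.15 (adjusted p = 3.42e-05) and Dgat2, an enzyme of triglyceride synthesis, by 1.16 ± 0.13 (adjusted p = 2.04e-06), while the cell cycle kinase Wee1 rose by 0.49 ± 0.077 (adjusted p = 4.53e-05). The same 4 genes passed in the same directions in controls. With T cells, 0 of the 12 passed in neonatal hearts (0 with an unadjusted p under 0.05) and 1, Tcap, in adult hearts (0.36 ± 0.084, adjusted p = 0.0214). Of all genes 0% passed in neonatal and 8.55% in adult hearts. In adult hearts 3 of the 12 had an unadjusted p under 0.05. The Tcap call was lost with the length trend removed (adjusted p = 0.219) and without adult recipient 2 or 4 or adult control 5 or 6 (adjusted p 0.0506 to 0.0867).

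Signals that can act on Per1 were read beside it. Of 8 genes induced by glucocorticoids 2 rose and 3 fell in neonatal over adult controls, and 2 rose and 2 fell in recipients, beside 30.9% and 50.7% of all genes called. Fkbp5, a co-chaperone of the glucocorticoid receptor, rose by 0.85 ± 0.13 in recipients and 1.06 ± 0.14 in controls (adjusted p = 4.45e-05 and 4.32e-05), and Klf9 fell by 0.84 ± 0.15 and 0.93 ± 0.16 (adjusted p = 0.000179 and 0.000335). Of 8 genes induced by cAMP or as immediate early genes 3 fell in recipients and 2 in controls, and none rose, beside 50.7% and 30.9% of all genes called. Dusp1, a phosphatase of MAP kinases, had 84.5, 53.0 and 106 CPM in adult controls 5, 6 and 7, and Fos 8.48, 2.37 and 23.3 CPM. Adult controls 6 and 7 were thus the lowest and highest of their group for Per1, Dusp1 and Fos alike. Of the 8 cAMP and immediate early genes Crem alone ran opposite there, at 17.2 and 14.2 CPM. Adult recipients did not share the order, since Per1 was highest in recipient 1 (49.7 CPM) and Dusp1 and Fos in recipient 2 (105 and 17.1 CPM). With T cells 0 of these 16 genes passed at either age by edgeR, with 0 at an unadjusted p under 0.05 in neonatal hearts and 1, Ddit4, in adult hearts. Of all genes 0% passed in neonatal and 8.55% in adult hearts.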

How the data were processed

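RNA was captured with oligo-dT beads and made into stranded libraries, per the labels' protocols. Per the submitters' processing notes, bcl2fastq 2.20.0.422, cutadapt 2.5, STAR 2.7.2b on GRCm38.p6, featureCounts 1.6.4 and DESeq2 1.24.0 were used. The authors deposited unscaled expected counts per gene, with reads split into fractions (61.1% of non-zero values whole). The strand setting and the rule for fractions are not given in the sources used here.

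Counts were rounded, genes kept by filterByExpr of edgeR (minimum count 10, minimum total 15), and 16437 of 39331 tested. All 15 libraries were fitted with 1 coefficient per group (edgeR 4.0.16, R 4.3.3, robust quasi-likelihood, TMM scaling), two-sided, with Benjamini-Hochberg adjustment over all genes and a threshold of 0.05. Fold changes put neonates over adults and recipients over controls. Log2 CPM used a prior count of 1. Labels do not say that replicates are separate mice, so p-values measure the spread between these samples, which may be technical. Intervals of single counts were not needed, and the floor covers counting error only. Transcript lengths are the longest per symbol in GENCODE M21 (93.3% of tested genes matched). The length trend was a natural spline with 5 degrees of freedom per library, entered as an offset. Alternatives were scaling by DESeq2 size factors, no filter, DESeq2 1.42.0, limma voom 3.58.1, fits of the compared groups alone, single libraries left out and a replicate block. The steps were tested on simulated data. The members, lists and tests were chosen with earlier results of these data known. By rule, the text could name all members, Arntl, Npas2, Nfil3, Hlf, Ciart and called genes of the other clock list, up to 4 genes with the smallest p per further list and comparison, and the 6 genes closest to Dbp and to Clock. The Fos and Crem levels by library, the Ryr2 values and the genes overlapping members were added after values were seen. Some clock genes of the wider lists are not reported here and are left out of the list counts.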

Additional observations from a re-analysis of the deposited data

Results flagged for a closer look

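Among 30 combinations of a clock gene and a group of 4 libraries, 2 held a library whose gap to its nearest neighbour was large for the range of its group, where chance alone flags about 1 in 20. Dbp in neonatal recipient 1 stood at 19.7 CPM, against 26.6, 27.4 and 27.2 CPM in the other neonatal recipients, and the same library had the lowest Per3 level of all 15 libraries, 17.2 CPM. Per3 in adult recipient 2 stood at 28.02 CPM, just under 29.1, 29.0 and 29.0 CPM in the other adult recipients, a group of narrow range. No clock gene passed for the difference of the T cell effects between ages.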

How the results depend on the processing

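Over 10 members and 5 comparisons, DESeq2 size factors, no filter and DESeq2 itself kept all 50 directions and calls. Limma voom reversed 2 uncalled values, Nr1d1 for T cells in neonates (0.0079) and Per1 for age in controls (0.058). Removal of the length trend reversed 7 uncalled values of members, Clock for T cells in neonates (0.0054) and age in controls (-0.049), Tef for T cells in adults (0.028), Per2 (-0.011) and Per3 (-0.050) for the difference of the T cell effects, and Cry1 (-0.012) and Nr1d2 (-0.039) for age in recipients, and it reversed Npas2 there (-0.067). For T cells in adults it left 0 members, 0 of the ROR element arm, 0 heart clock outputs and 0 genes in all. For age in recipients it left 1 of the ROR element arm, against 2. In adult libraries alone 2 members, 1 gene of the E-box and D-box arm and 2 outputs passed for T cells. Over all genes 1804 passed in that fit. In recipients alone 5 cAMP and immediate early genes passed for age, where 8042 genes in all did. Fits of the compared groups alone gained 2 calls of members and lost 0. These were Per3 for T cells in adults and 1 call in a comparison by age. DESeq2 called 1 output (against 0) for the difference and 4 cAMP and immediate early genes (against 2) for age in controls. Over all genes DESeq2 called 2324 for T cells in adults, against 1406, and 174 for the difference, against 0. The causes of these changes were not tested.

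Replicate numbers recur between ages only. Deviations from the group mean in same-numbered libraries correlated over genes at 0.07, 0.11 and -0.07 in recipients and -0.06 and 0.31 in controls. Libraries of different numbers were not correlated for comparison, so these values do not settle whether the numbers pair samples. With a replicate block on shared numbers (3 and 2 pairs), for age in controls 2 other clock genes, 0 of the ROR element arm, 3 glucocorticoid and 0 cAMP and immediate early genes passed, Nr1d1 did not (adjusted p = 0.220) and Nr1d2 did (-0.36). In recipients with the block Per1 passed (-0.45) and Per3 did not (-0.32).

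With 1 library left out, T cells in adults gave 0 to 2 members, 0 to 1 in each arm, 0 to 1 outputs and 0 to 2 cAMP and immediate early genes. The last gave 1 to 4 for age in controls and 1 to 3 in recipients. Uncalled values that changed sign ranged as follows. For T cells in neonates these were Clock -0.055 to 0.023, Cry1 -0.0096 to 0.097, Nr1d1 -0.097 to 0.047, Per1 -0.19 to 0.063 and Per2 -0.17 to 0.040. For T cells in adults these were Ciart -0.10 to 0.35, Crem -0.0011 to 0.17 and Cry2 -0.045 to 0.088. For age in controls these were Arntl2 -0.21 to 0.22, Ciart -0.15 to 0.30, Clock -0.068 to 0.15, Cry1 -0.11 to 0.0041, Csnk1e -0.089 to 0.016, Nr1d2 -0.13 to 0.041 and Per1 -0.29 to 0.44. For age in recipients these were Ciart -0.022 to 0.41, Cry1 -0.0036 to 0.11 and Npas2 -0.031 to 0.17. The lowest count of a member in a library was 152 (Per2).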
